A study of Mus musculus with 28 samples.

Results

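The 10 genes described here, Ddit4l, Fam13a, Ednrb, Comp, Cdcp1, Vegfd, Rasd2, Slc6a9, Prkaa2 and Trim9, were selected on their RA839 minus DMSO difference in Nrf2+/+ macrophages, as large rises, and none belongs to the classical redox targets of Nrf2. They are 10 of 18193 genes named on the arrays and had 24 of the 45037 probe sets that were not controls. Of the 10 genes, 8 had more than 1 probe set. RA839 is a small molecule that binds Keap1 non-covalently. The cells were bone marrow derived macrophages from Nrf2-/- and Nrf2+/+ mice on a C57BL/6 J background, 12 weeks old. In the compound experiment there were 4 groups: Nrf2-/- with RA839, Nrf2-/- with DMSO, Nrf2+/+ with RA839 and Nrf2+/+ with DMSO. All 4 received 0.2% DMSO for 4 h. In the siRNA experiment, Nrf2+/+ macrophages received siKeap1-1, siKeap1-2 or siControl. Each of the 7 groups had 4 arrays from biological replicates, 28 in all. The sources used here give no RA839 dose, siRNA sequence, time after transfection, design of the Nrf2-/- allele or statement on pooling of mice.

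Nrf2, encoded by Nfe2l2, is a transcription factor that Keap1 holds in the cytoplasm and delivers to ubiquitin ligation and degradation. Compounds that occupy Keap1, or loss of Keap1, let Nrf2 accumulate, enter the nucleus and bind antioxidant response elements together with small Maf proteins. Its classical targets make glutathione, reduce thioredoxin, supply NADPH and conjugate or export electrophiles. The 10 genes have other known roles: a secreted growth factor (Vegfd), a peptide receptor (Ednrb), a matrix protein (Comp), a surface glycoprotein (Cdcp1), an amino acid transporter (Slc6a9), 2 regulators of growth and energy signalling (Ddit4l and Prkaa2), 2 proteins of small GTPase signalling (Rasd2 and Fam13a) and an E3 ubiquitin ligase (Trim9).

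Values are log2 RMA values, so a difference of 1 is a change in signal by a factor of 2. The arrays ran from 1.77 to 15.24 on this scale. The genotype and the siRNAs were checked first. Nfe2l2 (probe set 1416543_at) read 3.18 to 3.52 on the 8 Nrf2-/- arrays and 11.85 to 12.96 on the 8 Nrf2+/+ arrays of the compound experiment. A dimmer Nfe2l2 probe set, 1457117_at, overlapped between genotypes (7.61 to 8.66 and 8.33 to 9.40). Keap1 (1450746_at) read 8.93 to 9.13 with siKeap1-1, 9.15 to 9.47 with siKeap1-2 and 10.94 to 11.16 with siControl. The summed signal of 10 macrophage markers lay between 16.53 and 16.88 in log2 in all 7 groups, with Lyz2 the brightest. In the siRNA experiment the sums were 16.70 to 16.74 with siKeap1-1, 16.67 to 16.71 with siKeap1-2 and 16.84 to 16.88 with siControl. Every siKeap1 array was thus below every siControl array. Of the 10 markers, 3 were lower with siKeap1-1 and 4 with siKeap1-2 than with siControl. In DMSO, 2 of the 10 were higher in Nrf2-/- than in Nrf2+/+ cells (Fcgr1 and Cd14) and 2 lower (Itgam and Mrc1). One library stood apart: RA839 array 2 in Nrf2+/+ cells had a Gapdh signal 3.74 higher at the 3′ end than at the 5′ end, against 0.77 to 1.00 on the other 15 arrays of the compound experiment. For Actb the same measure was 3.10 on that array, against 1.28 to 2.04. The RA839 minus DMSO differences in Nrf2+/+ cells include this array, as 1 of 4 with RA839. All compound arrays shared a fit, so this array also entered the spread behind the other compound tests, such as genotype in DMSO. Without it, 12176 probe sets passed for genotype in DMSO in place of 9592, though neither group holds it. The limma adjusted p there was 1.48e-05 in place of 0.0012 for Rasd2 and 0.028 in place of 0.0596 for Fam13a. It was higher without the array for Ednrb, Comp and Trim9 (1.44e-08, 5.95e-05 and 1.2e-06).

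The rise with RA839 in Nrf2+/+ cells chose the genes, so it is described here without a test. Across the probe set with the highest mean of each gene, the RA839 minus DMSO difference ran from 1.30 (Slc6a9) to 2.61 (Trim9), with a median of 1.74. In all 10 genes the 4 RA839 arrays read above the 4 DMSO arrays. Over all probe sets, 0.344% passed an adjusted p of 0.05 in this comparison, 0.311% as higher, and 2.64% had all RA839 arrays above all DMSO arrays. With the replicate number as a block, 579 probe sets passed in place of 155. Of the 24 member probe sets, 18 had all RA839 arrays above all DMSO arrays. Without RA839 array 2 the 10 differences ran from 1.41 to 2.69. That array was the highest of its group for Rasd2 and Cdcp1, whose differences were 1.77 and 1.48 without it, against 2.21 and 1.72 with it. It was the lowest of its group for Ddit4l, Fam13a, Ednrb, Vegfd, Slc6a9 and Prkaa2, whose differences were 1.41 to 2.36 without it. Comp was 1.76 with and without it, and Trim9 was 2.69 without it.

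**Figure D1:**
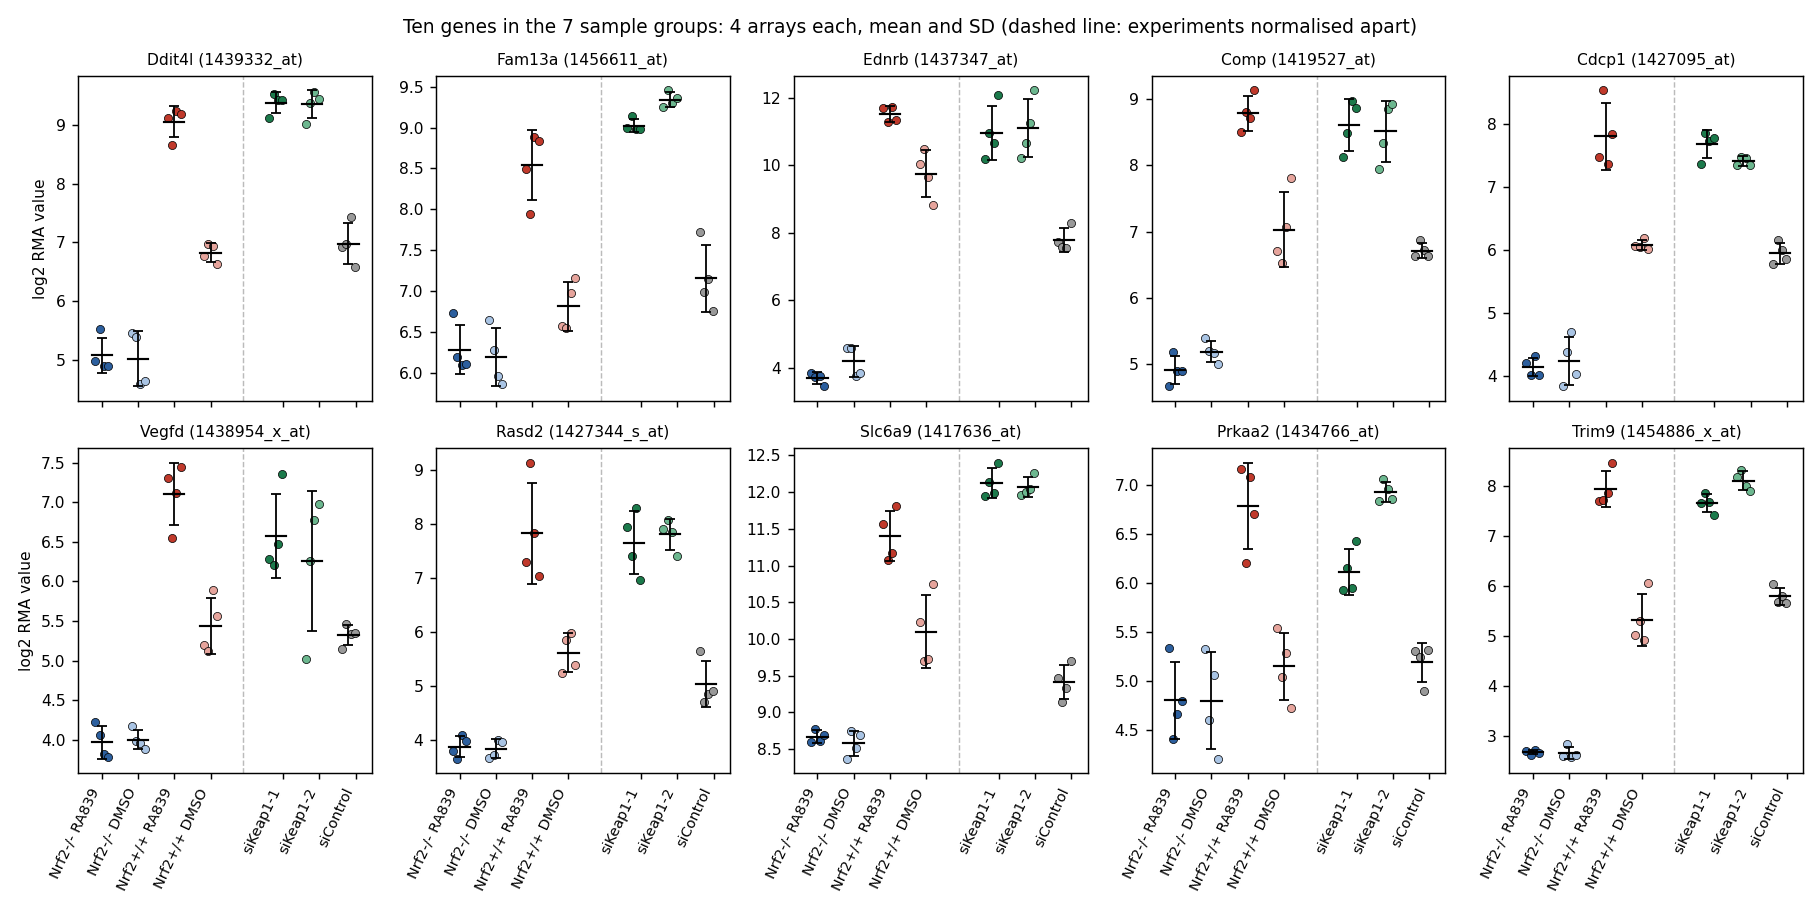
Log2 RMA values of the 10 genes (1 probe set each, vertical axes) in the 7 groups. Points are arrays, horizontal bars are means and error bars are SD (n = 4 each). The Nrf2+/+ RA839 arrays sit above the Nrf2+/+ DMSO arrays in every panel, the 2 Nrf2-/- groups overlap in every panel, and the siKeap1-1 arrays sit above the siControl arrays in every panel. The dashed line separates the 2 experiments, which were normalised apart.

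The first question for these genes was whether RA839 moved them without Nrf2. In Nrf2-/- cells none of the 24 member probe sets passed the threshold for RA839 minus DMSO. The differences ran from -0.50 to 0.14 with a median of 0.02, and all 24 of the 95% intervals held 0. The background was the same: limma called 0 of 45037 probe sets (0%), while 860 (1.91%) had an unadjusted p under 0.05. The upper ends of the intervals for the 10 genes lay between 0.09 (Ednrb) and 0.72 (Rasd2). The RA839 difference in Nrf2+/+ cells exceeded that in Nrf2-/- cells by 1.21 (Slc6a9) to 2.60 (Trim9). Without RA839 array 2 of Nrf2+/+ cells it ran from 1.32 (Slc6a9) to 2.67 (Trim9), and it was 1.74 for Rasd2 and 1.57 for Cdcp1, against 2.17 and 1.82 with that array. That gap contains the contrast that chose the genes and was not tested for them.

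**Figure D2:**
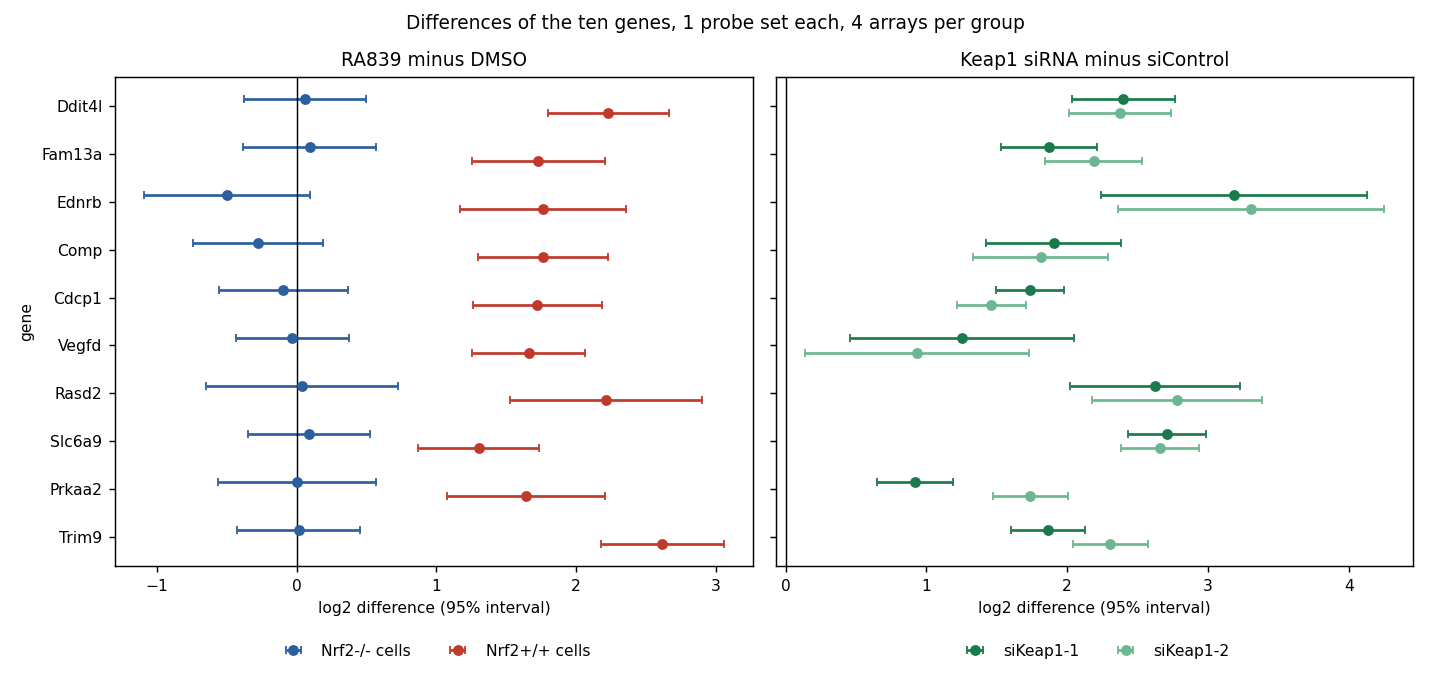
Log2 differences of the 10 genes (vertical axis) with 95% intervals (horizontal axis), 1 probe set per gene and 4 arrays per group. In the left panel the RA839 minus DMSO differences in Nrf2-/- cells (blue) lie between -0.50 and 0.09 and their intervals hold 0, and those in Nrf2+/+ cells (red), which chose the genes, lie between 1.30 and 2.61. In the right panel the siKeap1-1 (dark green) and siKeap1-2 (light green) minus siControl differences lie between 0.92 and 3.31.

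The second question was whether the genes depended on Nrf2 without compound. In DMSO, 8 of the 10 genes were lower in Nrf2-/- than in Nrf2+/+ cells, with log2 differences of -1.44 (Vegfd) to -5.56 (Ednrb), and none was higher. Fam13a (difference -0.62 ± 0.23 SE, limma adjusted p = 0.0596) and Prkaa2 (-0.35 ± 0.27, adjusted p = 0.39) did not pass. Fam13a passed under 4 of 22 alternatives, among them the fit without Nrf2+/+ RA839 array 2. Of the 24 member probe sets 14 passed, all lower, and the same number had all 4 Nrf2-/- arrays below all 4 Nrf2+/+ arrays. Over all probe sets 11.4% passed as lower, 21.3% in either direction, and 13.6% had no overlap in that direction. The median of the 10 genes was -1.79. This comparison shares the Nrf2+/+ DMSO arrays with the contrast that chose the genes. A gene picked because those arrays read low would be pushed towards a positive value here. Several genes read near the lower end of the scale in Nrf2-/- cells and no detection calls were used, so their fold differences may be too small.

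The siRNA experiment is described for these genes without a test, because the set was named with the siKeap1 results in view and RA839 responders that siKeap1 did not raise were grouped elsewhere. Their direction with siKeap1 is therefore fixed in part by the grouping. With siKeap1-1 the difference from siControl ran from 0.92 (Prkaa2) to 3.18 (Ednrb) with a median of 1.89, and all siKeap1-1 arrays were above all siControl arrays for 10 of the 10 genes and 20 of the 24 probe sets. With siKeap1-2 it ran from 0.93 (Vegfd) to 3.31 (Ednrb) with a median of 2.25, and there was no overlap for 9 of the 10 genes and 18 of the 24 probe sets. Over all probe sets, 8.56% had all siKeap1-1 arrays and 8.63% all siKeap1-2 arrays above all siControl arrays. For siKeap1-1, 9.55% of all probe sets passed the threshold and 5.18% as higher, with 6982 in place of 4301 when the replicate number was a block. For siKeap1-2, 6.78% passed and 3.64% as higher, with 5674 in place of 3053 with the block. Both comparisons use the same 4 siControl arrays.

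Among the signalling molecules outside the cell, Vegfd encodes a secreted ligand best known for lymphatic vessel growth through the receptor Flt4. Its probe set 1438954_x_at read 4.23, 4.06, 3.83 and 3.78 with RA839 and 4.17, 3.98, 3.96 and 3.89 with DMSO in Nrf2-/- cells. In Nrf2+/+ cells it read 7.30, 6.55, 7.12 and 7.45 with RA839 and 5.20, 5.12, 5.89 and 5.56 with DMSO. The RA839 and DMSO arrays separated in Nrf2+/+ cells and overlapped in Nrf2-/- cells. In DMSO, Vegfd was 2.71-fold lower in Nrf2-/- cells (-1.44 ± 0.19 in log2, limma adjusted p = 9.87e-05). In the siRNA experiment the arrays read 6.28, 6.20, 6.48 and 7.35 with siKeap1-1, 5.02, 6.26, 6.77 and 6.98 with siKeap1-2 and 5.15, 5.46, 5.34 and 5.35 with siControl. All siKeap1-1 arrays were above the siControl arrays, but siKeap1-2 array 1, at 5.02, lay below them all. The difference was 1.25 ± 0.37 for siKeap1-1 and 0.93 ± 0.37 for siKeap1-2. Without siKeap1-2 array 1 the siKeap1-2 difference was 1.34.

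Of 9 other VEGF ligands and receptors, 2 were higher and 2 lower in Nrf2-/- cells in DMSO, 1 was higher and 1 lower with siKeap1-1, and 1 was lower with siKeap1-2. With RA839 in Nrf2+/+ cells none of the 9 passed, and their median was -0.13. In DMSO, Vegfa, the main angiogenic ligand, was higher in Nrf2-/- cells by 1.84 ± 0.20 (adjusted p = 1.94e-05), as was the receptor Kdr by 0.88. Nrp1 and Nrp2, coreceptors, were lower (-0.54 and -0.58). With siKeap1-1, Vegfb was higher by 0.37 and the receptor Flt1 was lower (-1.07 ± 0.13, adjusted p = 0.000317), and with siKeap1-2 Kdr was lower (-0.55). Flt1 was also lower with siKeap1-1 than with siKeap1-2 (-0.76).

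Ednrb encodes the type B endothelin receptor, a G protein coupled receptor known for its part in melanocyte and enteric neuron development. Its probe set 1437347_at read 3.85, 3.74, 3.76 and 3.46 with RA839 and 4.59, 4.60, 3.76 and 3.86 with DMSO in Nrf2-/- cells. In Nrf2+/+ cells the arrays read 11.71, 11.30, 11.72 and 11.35 with RA839 and 10.05, 10.48, 9.66 and 8.83 with DMSO. Every Nrf2-/- array was more than 4 log2 units below every Nrf2+/+ array. In DMSO the Nrf2-/- signal was 47-fold lower, a size that depends on values near the lower end of the scale (-5.56 ± 0.28, 95% interval -6.15 to -4.96, adjusted p = 3.74e-09). RA839 in Nrf2-/- cells gave -0.50 (95% interval -1.09 to 0.09, adjusted p = 1). In the siRNA experiment Ednrb read 10.19, 10.95, 10.67 and 12.08 with siKeap1-1, 10.23, 10.68, 11.25 and 12.22 with siKeap1-2 and 7.73, 7.57, 7.55 and 8.30 with siControl. No siKeap1 array overlapped siControl, and the spread within each siKeap1 group was about 2 log2 units. The differences, 3.18 ± 0.43 and 3.31 ± 0.43, were the largest of the 10 genes for both siRNAs.

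Other Ednrb probe sets were dimmer and moved less. In DMSO, 1423594_a_at was lower in Nrf2-/- cells (-0.96), as was 1426314_at (-0.90). With siKeap1-1 and siKeap1-2, 1426314_at was higher by 0.53 and 0.53, and 1423594_a_at by 0.58 and 0.68. The 3 probe sets shared a direction in every comparison with siControl or between genotypes. Of 5 measured genes of the endothelin system, none passed with RA839 in Nrf2+/+ cells or with either siKeap1. The ligands Edn1 and Edn3 were lower in Nrf2-/- cells in DMSO, with differences of -0.46 (adjusted p = 0.0418) and -0.33 (adjusted p = 0.0302).

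Comp encodes cartilage oligomeric matrix protein, a member of the thrombospondin family of the extracellular matrix. Its only probe set, 1419527_at, read 4.66, 5.18, 4.89 and 4.90 with RA839 and 5.38, 5.20, 5.16 and 4.99 with DMSO in Nrf2-/- cells, against 8.50, 8.81, 8.72 and 9.14 with RA839 and 6.71, 6.53, 7.07 and 7.81 with DMSO in Nrf2+/+ cells. In DMSO it was 3.59-fold lower in Nrf2-/- cells (adjusted p = 3.63e-05). It read 8.12, 8.48, 8.98 and 8.87 with siKeap1-1, 7.95, 8.35, 8.86 and 8.93 with siKeap1-2 and 6.63, 6.87, 6.72 and 6.62 with siControl. All siKeap1 arrays were above all siControl arrays, with 3.74-fold for siKeap1-1 and 3.51-fold for siKeap1-2. None of the 4 other thrombospondins passed with RA839 in Nrf2+/+ cells. Thbs1 was higher in Nrf2-/- cells in DMSO (2.32 ± 0.67, adjusted p = 0.0224) and with siKeap1-2 (0.73, adjusted p = 0.0383), and Thbs3 was lower in Nrf2-/- cells (-0.48).

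Ednrb, Vegfd and Comp are known mainly from cells other than macrophages, so markers of such cells were read beside them. Of 8 fibroblast and stromal markers, 4 were lower in Nrf2-/- than in Nrf2+/+ cells in DMSO, among them Postn (-1.54 ± 0.27, adjusted p = 0.000834) and Pdgfra (-0.81). The summed signal of the 8 was 7.85 to 8.13 in log2 on the Nrf2-/- DMSO arrays and 8.22 to 9.14 on the Nrf2+/+ DMSO arrays. With RA839 in Nrf2+/+ cells no stromal marker passed, and the sums were 8.53 to 8.91 with RA839 and 8.22 to 9.14 with DMSO. With siKeap1-1 and siKeap1-2, 1 of 8 was higher, Pdgfra, by 0.98 and 1.88, and the sums were 8.78 to 9.16, 9.09 to 9.55 and, with siControl, 8.74 to 9.35. Of 5 measured chondrocyte and osteoblast markers, 1 was higher and 1 lower in Nrf2-/- cells in DMSO and none passed with either siKeap1. Of 7 endothelial markers, 1 was higher and 2 lower in Nrf2-/- cells in DMSO, none passed with siKeap1-1 and 2 were lower with siKeap1-2. Of 8 neutrophil markers, 3 were lower in Nrf2-/- cells in DMSO, with summed signals of 10.99 to 11.55 in Nrf2-/- and 12.12 to 12.26 in Nrf2+/+ cells. No neutrophil marker passed with RA839 in Nrf2+/+ cells, but 1 of 8 was above 0, the median was -0.38, and the sums were 11.63 to 12.10 with RA839 and 12.12 to 12.26 with DMSO, with no overlap. In the siRNA experiment 1 of the 8, Elane, was higher with siKeap1-1, and these sums were 12.46 to 13.16 with siKeap1-1, 12.49 to 13.45 with siKeap1-2 and 11.85 to 13.01 with siControl. Of 5 epithelial markers, 2 were higher in Nrf2-/- cells in DMSO (Cdh1 and Cldn4), and the sums were 9.84 to 11.32 in Nrf2-/- and 8.90 to 9.52 in Nrf2+/+ cells. Of 5 dendritic cell markers, 2 were lower with siKeap1-1 (Flt3 and Ccr7), with a median of -0.52. With siKeap1-2 none passed, and the median was -0.39. The sums were 13.60 to 13.80 with siKeap1-1, 13.76 to 13.80 with siKeap1-2 and 13.72 to 13.80 with siControl. These sums mainly follow the brightest marker, Itgax, which averaged 13.54, 13.64 and 13.58 in these groups. Of 5 measured B and T cell markers, 1 was lower in Nrf2-/- cells in DMSO, and none of 4 melanocyte and glia markers passed in any of these comparisons. The part of these cells in the RA839, genotype and siRNA differences was not tested. In bulk RNA, fewer cells of a type and less RNA per cell cannot be told apart.

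At the plasma membrane, Cdcp1 encodes a transmembrane glycoprotein that Src family kinases phosphorylate. Its only probe set, 1427095_at, ranged over 4.02 to 4.33 with RA839 and 3.84 to 4.71 with DMSO in Nrf2-/- cells, against 7.36 to 8.54 with RA839 and 6.01 to 6.20 with DMSO in Nrf2+/+ cells. The Nrf2-/- values lay below all Nrf2+/+ values, and in DMSO the difference was -1.85 ± 0.22 (adjusted p = 3.43e-05). Cdcp1 averaged 7.69 ± 0.22 with siKeap1-1, 7.41 ± 0.07 with siKeap1-2 and 5.95 ± 0.17 with siControl (SD, n = 4 each). The signal was 3.33-fold higher with siKeap1-1 and 2.75-fold higher with siKeap1-2, with no overlap. Of 7 kinases and partners listed for Cdcp1, the protease gene St14 differed by -1.17 in Nrf2-/- cells (adjusted p = 8.68e-07), 0.80 with siKeap1-1 (adjusted p = 0.0001) and 0.56 with siKeap1-2 (adjusted p = 0.00187). St14 did not pass with RA839 in Nrf2+/+ cells, nor did any of the 7. Src was lower with both siRNAs (-0.56 and -0.38), Itgb1 was lower with siKeap1-1 (-0.61), and Fyn and Cdh1 were higher in Nrf2-/- cells in DMSO (0.66 and 1.46).

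Slc6a9 encodes the glycine transporter GlyT1, and glycine is one of the 3 amino acids of glutathione. Its probe set 1417636_at read 8.59, 8.78, 8.61 and 8.70 with RA839 and 8.37, 8.75, 8.51 and 8.69 with DMSO in Nrf2-/- cells, against 11.57, 11.07, 11.16 and 11.80 with RA839 and 10.23, 9.69, 9.73 and 10.75 with DMSO in Nrf2+/+ cells. All Nrf2-/- arrays were below all Nrf2+/+ arrays, and in DMSO the signal was 2.87-fold lower (adjusted p = 0.000115). The siRNA arrays read 11.95, 12.14, 11.98 and 12.40 with siKeap1-1, 11.97, 12.01, 12.04 and 12.26 with siKeap1-2 and 9.46, 9.14, 9.33 and 9.69 with siControl. All siKeap1 arrays were above all siControl arrays, with differences of 2.71 ± 0.13 for siKeap1-1 and 2.66 ± 0.13 for siKeap1-2. Probe set 1431812_a_at had the same directions at smaller sizes: -0.52 in Nrf2-/- cells in DMSO (adjusted p = 0.00128), 0.58 with siKeap1-1 and 0.72 with siKeap1-2. Its RA839 minus DMSO difference in Nrf2+/+ cells was 0.24 (0.25 without RA839 array 2), and those arrays overlapped. Of 13 genes of glycine transport and serine and glycine metabolism, none passed with RA839 in Nrf2+/+ cells. In DMSO Slc36a1 was lower in Nrf2-/- cells (-0.58), Shmt1 was higher with siKeap1-1 (0.31) and Slc38a2 was lower with siKeap1-2 (-0.43).

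Inside the cell, Ddit4l encodes an inhibitor of mTORC1 signalling related to Ddit4. Its probe set 1439332_at read 4.98, 5.52, 4.90 and 4.90 with RA839 and 5.46, 5.39, 4.59 and 4.64 with DMSO in Nrf2-/- cells, against 9.12, 8.67, 9.25 and 9.19 with RA839 and 6.77, 6.97, 6.93 and 6.63 with DMSO in Nrf2+/+ cells. Nrf2-/- values were below all Nrf2+/+ values, and in DMSO the difference was -1.81 ± 0.21 (adjusted p = 2.39e-05). Its siRNA values were 9.13, 9.54, 9.43 and 9.42 with siKeap1-1, 9.02, 9.38, 9.57 and 9.45 with siKeap1-2 and 6.93, 6.98, 7.43 and 6.58 with siControl. No siKeap1 array overlapped siControl, and the signal was 5.28-fold higher with siKeap1-1 and 5.18-fold higher with siKeap1-2. The 3 probe sets of Ddit4l were close to each other in the siRNA experiment, 2.07 to 2.40 with siKeap1-1 and 2.37 to 2.42 with siKeap1-2. They disagreed over genotype: in DMSO, 1444139_at (-0.84, adjusted p = 0.0873) and 1451751_at (-0.43, adjusted p = 0.162) did not pass. Without Nrf2-/- DMSO array 2, 1444139_at did, at -1.14 (adjusted p = 0.021, with 0.021 to 0.271 over its alternatives). Of 14 genes of mTORC1 signalling and its restraint, none passed with RA839 in Nrf2+/+ cells. In DMSO, Tsc2 and Depdc5 were lower in Nrf2-/- cells (-0.66 and -0.51) and Tsc1 was higher (0.37). With siKeap1-1, 2 were higher, Depdc5 (0.36) and Akt1s1 (0.27), and 2 lower, Rptor (-0.35) and Castor2 (-0.33). With siKeap1-2, 1 was lower, Rptor (-0.23). In none of the lists of relatives did a gene pass with RA839 in Nrf2-/- cells.

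RefSeq windows (GRCm38.p6) from 250 bases before to 50 bases after each start were searched on both strands for TGACNNNGC, the core of the antioxidant response element, and for TGANTCA, the AP-1 type site, which reads the same on both strands. Of the 10 genes, 9 had 11 windows. TGACNNNGC was in 3 of these 11 windows, against 12.4% of 32851 windows of this length, and TGANTCA was in 1, the Trim9 window, against 7.81%. The TGACNNNGC matches were in 2 of the 9 genes, in Ddit4l and in 2 of the 3 Slc6a9 windows. The 12.4% is a share of windows and not of genes. The stretch before the Ddit4l start and the Slc6a9 matches with 10 bases on each side are shown because they hold these letters, which are in capitals. All 3 run 5′ to 3′ on the plus strand, which is the strand of both genes. A match is only a run of letters, and no binding was measured. Bases outside the windows were not searched, so a gene without a match here may still hold one.
Ddit4l chr3:137623422-137623671: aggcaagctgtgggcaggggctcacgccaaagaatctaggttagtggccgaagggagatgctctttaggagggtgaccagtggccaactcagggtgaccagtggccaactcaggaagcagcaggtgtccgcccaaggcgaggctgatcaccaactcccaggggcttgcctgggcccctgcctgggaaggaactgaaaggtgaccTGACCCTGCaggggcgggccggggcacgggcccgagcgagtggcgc
Slc6a9 chr4:117849294-117849322: tgaaagtaatTGACGCTGCccagcccggc
Slc6a9 chr4:117855492-117855520: gtttccggctTGACTTGGCtgcttggtat

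The Ddit4l match lay 46 to 38 bases before the start. The first Slc6a9 match lay at the same distance from its own start, and the other lay 45 to 37 bases before.

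Prkaa2 encodes the alpha 2 catalytic subunit of AMP activated protein kinase. Its probe set 1434766_at read 5.34, 4.41, 4.66 and 4.80 with RA839 and 5.33, 4.60, 5.06 and 4.21 with DMSO in Nrf2-/- cells, against 7.17, 6.21, 7.08 and 6.70 with RA839 and 5.54, 5.05, 5.28 and 4.73 with DMSO in Nrf2+/+ cells. The Nrf2-/- groups overlapped the Nrf2+/+ DMSO group and lay below the Nrf2+/+ RA839 group. Its siRNA values were 5.93, 6.15, 5.95 and 6.42 with siKeap1-1, 6.84, 7.06, 6.96 and 6.86 with siKeap1-2 and 5.31, 5.25, 4.90 and 5.31 with siControl. Each siKeap1 group was above siControl, by 0.92 ± 0.12 and 1.74 ± 0.12. Prkaa2 was the one gene of the 10 that passed between the siRNAs, with siKeap1-1 lower than siKeap1-2 (-0.82 ± 0.12, adjusted p = 0.00285), in the same direction in 4 of 4 replicate numbers. Over all probe sets 4.01% passed between the siRNAs and 2.18% as lower, with 3780 probe sets in place of 1804 when the replicate number was a block. All siKeap1-1 arrays lay below all siKeap1-2 arrays for 4 of the 24 member probe sets and for 5.24% of all probe sets. Of the dimmer probe sets, 1429463_at (2.72 to 4.01 over the 28 arrays) differed by 0.38 with siKeap1-1 and 0.52 with siKeap1-2, and 1429464_at by 0.03 and 0.18. Their RA839 minus DMSO differences in Nrf2+/+ cells were 0.48 and 0.40 (0.59 and 0.39 without RA839 array 2). The RA839 and DMSO arrays overlapped for 1429463_at but not for 1429464_at. Of 11 other AMPK subunits and upstream kinases, Stradb was higher with RA839 in Nrf2+/+ cells (0.41 ± 0.07, adjusted p = 0.0217), Prkag2 was lower in Nrf2-/- cells in DMSO (-0.50) and Camkk2 was lower with siKeap1-2 (-0.54). Prkab2 was lower with siKeap1-1 than with siKeap1-2 (-0.43).

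Rasd2 encodes a small GTPase of the Ras family best known from the striatum. Its probe set 1427344_s_at ranged over 3.66 to 4.09 with RA839 and 3.67 to 4.00 with DMSO in Nrf2-/- cells, against 7.04 to 9.13 with RA839 and 5.25 to 5.99 with DMSO in Nrf2+/+ cells. In DMSO it was 3.42-fold lower in Nrf2-/- cells, with no overlap (adjusted p = 0.0012). It read 7.94, 7.41, 8.29 and 6.96 with siKeap1-1, 7.91, 8.07, 7.84 and 7.40 with siKeap1-2 and 5.65, 4.70, 4.86 and 4.91 with siControl. No siKeap1 array overlapped siControl, and the signal was 6.15-fold higher with siKeap1-1 and 6.85-fold higher with siKeap1-2. The other probe set, 1427343_at, differed by -1.24 for genotype (adjusted p = 3.67e-05), 1.71 with siKeap1-1 and 2.07 with siKeap1-2. Of 8 relatives, 4 were lower in Nrf2-/- cells in DMSO, with Rasl10a (-0.75) and Rasl11a (-0.68) the furthest. None of the 8 passed with siKeap1-1, and Diras2 was lower with siKeap1-2 (-0.68).

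Fam13a encodes a protein with a RhoGAP domain, and its human gene is linked to lung function. Its probe set 1456611_at ranged over 6.09 to 6.72 with RA839 and 5.86 to 6.65 with DMSO in Nrf2-/- cells, against 7.95 to 8.89 with RA839 and 6.55 to 7.15 with DMSO in Nrf2+/+ cells. The Nrf2-/- and Nrf2+/+ DMSO arrays overlapped. The limma adjusted p of 0.0596 for genotype ran from 0.028 to 0.162 over 22 alternatives, under 0.05 in 4 of them. These were the fits without Nrf2+/+ RA839 array 2 (0.028) and without Nrf2-/- DMSO array 1 (0.0302), quantile normalization (0.0437) and only the groups compared (0.0496). The difference stayed at -0.62 without RA839 array 2, which is in neither group, and with only the groups compared. It averaged 9.03 ± 0.08 with siKeap1-1, 9.34 ± 0.09 with siKeap1-2 and 7.15 ± 0.41 with siControl (SD, n = 4 each). The signal was 3.66-fold higher with siKeap1-1 and 4.55-fold higher with siKeap1-2, and 1456621_at differed by 1.42 and 1.37. All siKeap1-1 arrays of 1456611_at were below all siKeap1-2 arrays, but the difference of -0.32 (95% interval -0.66 to 0.03) did not pass (adjusted p = 0.367). Its relatives Fam13b and Fam13c did not pass with siKeap1-1, at -0.24 and -0.03, or with RA839 in Nrf2+/+ cells, at 0.14 and -0.18.

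Trim9 encodes an E3 ubiquitin ligase best known from neurons. Its probe set 1454886_x_at read 2.70, 2.62, 2.71 and 2.67 with RA839 and 2.61, 2.83, 2.58 and 2.63 with DMSO in Nrf2-/- cells, against 7.70, 7.72, 7.86 and 8.46 with RA839 and 5.02, 5.29, 4.91 and 6.06 with DMSO in Nrf2+/+ cells. The Nrf2-/- values were near the lower end of the scale, where signal differences are compressed. All were below all Nrf2+/+ values, and in DMSO the difference was -2.66 ± 0.21 (adjusted p = 5.57e-07). It read 7.65, 7.86, 7.68 and 7.41 with siKeap1-1, 8.18, 8.32, 7.99 and 7.89 with siKeap1-2 and 6.03, 5.68, 5.79 and 5.66 with siControl. All siKeap1 arrays were above siControl, by 3.63-fold and 4.95-fold. The siKeap1-1 arrays were also all below the siKeap1-2 arrays, with a difference of -0.45 ± 0.12 that did not pass (adjusted p = 0.0652) but did with the replicate number as a block (adjusted p = 0.0201, with 0.0201 to 0.181 over 18 alternatives).

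The 4 probe sets of Trim9 disagreed. Probe set 1434249_s_at had the largest RA839 minus DMSO difference in Nrf2+/+ cells of all 45037, 3.27 (3.24 without RA839 array 2). It was lower in Nrf2-/- cells in DMSO (-1.45, adjusted p = 4.83e-06) and differed by 2.21 with siKeap1-1 and 2.76 with siKeap1-2. In contrast, 1434595_at and 1443989_at read 2.15 to 3.03 on all 28 arrays and passed in no tested comparison, with siKeap1 differences of 0.13 to 0.24. Their RA839 minus DMSO differences in Nrf2+/+ cells were 0.21 and 0.07 (0.22 and 0.05 without RA839 array 2). The probe sets that moved, 1434249_s_at and 1454886_x_at, carry other suffixes than these. Whether each reads Trim9 alone was not tested. Vegfd 1449528_at, whose RA839 minus DMSO difference in Nrf2+/+ cells was 0.78 (0.82 without RA839 array 2), did not pass for genotype (-0.30, adjusted p = 0.172) and differed by 0.18 and 0.18 with the siRNAs. In contrast, Vegfd 1438953_at followed 1438954_x_at (-2.06 for genotype, 1.11 and 0.98 with the siRNAs). Of 6 measured relatives in the Trim9 class, Trim36 was higher in Nrf2-/- cells in DMSO (0.43, adjusted p = 0.00514) and lower with RA839 in Nrf2+/+ cells (-0.47, adjusted p = 0.0493).

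**Figure D3:**
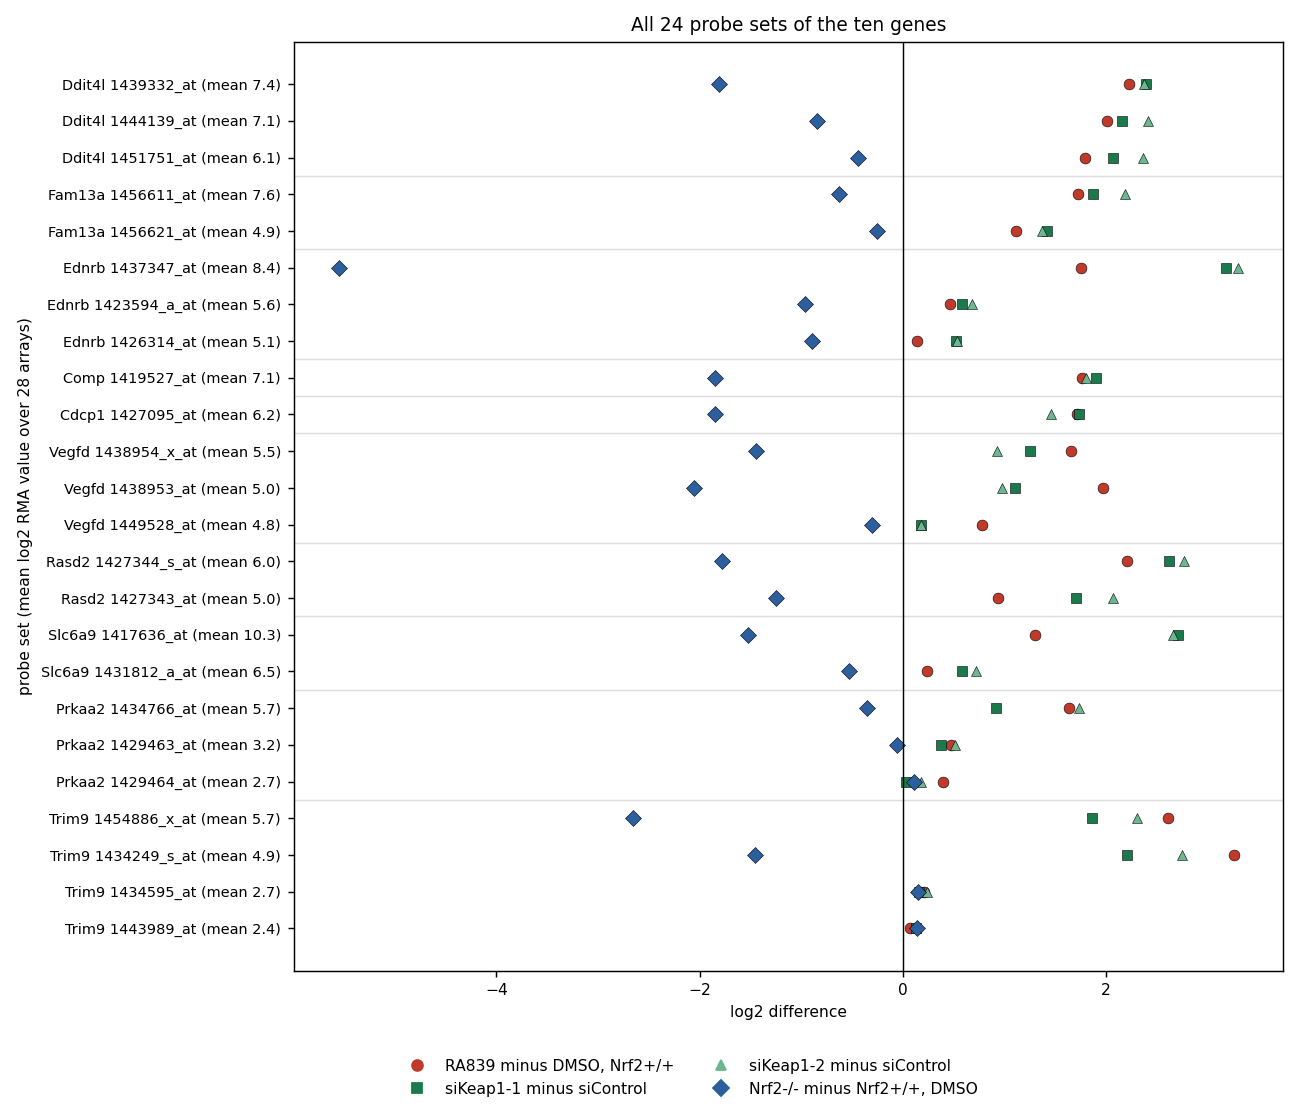
Log2 differences (horizontal axis) of all 24 probe sets (vertical axis, with the mean log2 value over 28 arrays) in 4 comparisons, each shown by its own symbol. The 3 dimmest probe sets (means of 2.36 to 2.71) stay within 0.40 of 0 in all 4, and the brightest probe set of each gene lies right of 0 with RA839 in Nrf2+/+ cells and with both siRNAs, and left of 0 for Nrf2-/- minus Nrf2+/+ in DMSO.

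Differences between same-numbered arrays varied over the 4 replicates. For Ednrb the paired siKeap1-1 differences by number were 2.46, 3.37, 3.11 and 3.78, and the siKeap1-2 differences were 2.50, 3.11, 3.70 and 3.92. For Comp they were 1.49, 1.62, 2.26 and 2.24 with siKeap1-1 and 1.32, 1.48, 2.14 and 2.30 with siKeap1-2. Both genes were higher in 4 of 4 replicates with either siRNA, and both siRNAs are set against the same siControl arrays. For Vegfd the siKeap1-1 differences were 1.13, 0.74, 1.14 and 2.00 and the siKeap1-2 differences were -0.13, 0.80, 1.44 and 1.62, higher in 4 of 4 and 3 of 4.

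**Figure D4:**
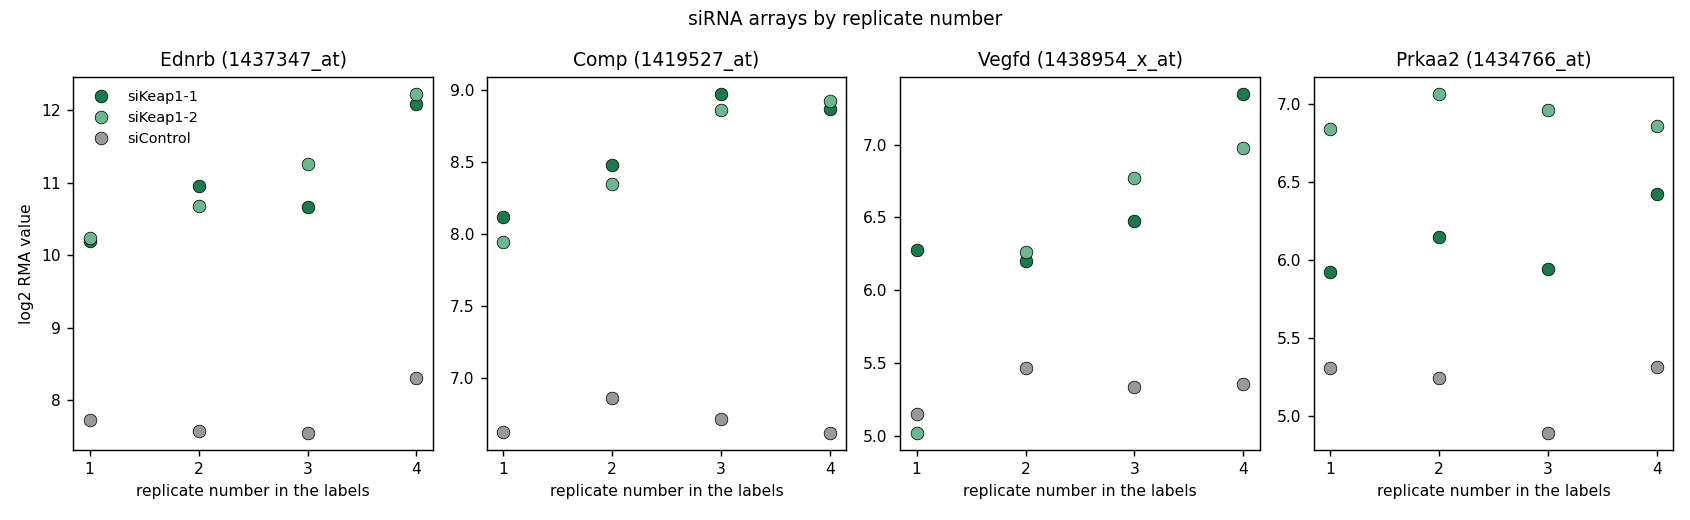
Log2 RMA values (vertical axes) of Ednrb, Comp, Vegfd and Prkaa2 in the siRNA experiment by replicate number (horizontal axes), 1 point per array. The siKeap1 arrays of number 1 read lowest for Ednrb and Comp, siKeap1-2 array 1 of Vegfd lies below siControl at 5.02, and the siKeap1-1 arrays of Prkaa2 lie between siControl and siKeap1-2.

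The classical redox targets gave a frame for these values. Of 27 measured, 24 were lower in Nrf2-/- than in Nrf2+/+ cells in DMSO with a median of -1.51, 20 were higher with siKeap1-1 with a median of 0.73, and 21 were higher with siKeap1-2 with a median of 0.75. With RA839, none passed in Nrf2-/- cells (median 0.03), and 7 were higher in Nrf2+/+ cells (median 0.42). Nqo1, a quinone reductase, differed by -4.83 for genotype in DMSO, 1.38 with siKeap1-1 and 0.63 with RA839 in Nrf2+/+ cells. Gclc, the catalytic subunit of glutamate cysteine ligase, differed by -1.22, 2.05 and 1.31. Srxn1, sulfiredoxin, differed by -2.84 for genotype and by 0.73 with RA839 in Nrf2+/+ cells. It did not pass with siKeap1-1 (0.04) but did with siKeap1-2 (0.55). The 10 genes were picked for large RA839 differences, so their larger medians with RA839 are fixed by that choice.

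Across the 28 arrays, with each experiment centred on its own mean, the 45 pairs of the 10 genes had Pearson correlations of 0.77 to 0.97 with a median of 0.91. These points share the group differences that chose the genes. After each group mean was removed, the same pairs ran from -0.58 (Rasd2 and Slc6a9) to 0.61 (Comp and Vegfd) with a median of 0.00. Outside the set, the most similar patterns were those of Slc16a9 (0.99) and Lrp8 (0.98) for Ednrb, and of Prkar2b and Ttc39c (both 0.98) for Comp. Gss (0.98) and Pcx (0.98) came first for Slc6a9, Rabgap1l and Chpf2 (both 0.97) for Ddit4l, and Rabgap1l and Serpinb9 (both 0.97) for Cdcp1. For Trim9 they were Zadh2 and Fam124a (both 0.97), for Rasd2 Calr3 (0.97) and Gss (0.95), and for Fam13a Gss (0.95) and Fech (0.94). For Vegfd they were Gm15201 and Rabgap1l (both 0.95). Prkaa2 had the least similar neighbours, Tubgcp4 and Acer2 (both 0.87). All are descriptions over 28 arrays.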

How the data were processed

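Total RNA of 28 macrophage samples was measured on expression arrays. The deposited table holds log2 values that the authors made with RMA, per the submitters' processing notes (version not given), with the 2 experiments at different array medians (5.61 to 5.71 and 5.91 to 5.96). Gene symbols came from GEO's platform annotation: 34945 had 1 gene, 932 several and 9160 none listed here. For each experiment limma 3.58.1 in R 4.3.3 was fitted to 45037 probe sets with 1 coefficient per group and empirical Bayes moderation, and p-values were adjusted by Benjamini-Hochberg over all of them (two-sided, threshold 0.05, intervals at 0.95). The fit was tested on simulated data. The members and gene lists were chosen with earlier results of these data known. Every probe set of the 10 genes was kept and the one with the highest mean is given in full, of relatives up to 4 that passed are named, and the 2 most correlated other genes are given. RA839 in Nrf2+/+ cells chose the members, and the siKeap1 comparisons with siControl, planned as tests, are given for them without a test because the set was grouped with those results known. Same-numbered arrays correlated after removal of group means, at 0.204 to 0.398 in Nrf2+/+, 0.584 to 0.602 in Nrf2-/- and 0.105 to 0.634 in the siRNA experiment. By this hint from the data, the numbers there were taken as pairs, but only in the same-numbered differences and the replicate block. The main fit, with its p-values and intervals, did not use the pairs. Between genotypes the correlations were -0.223 to -0.00812, and the numbers were not taken as pairs. P-values set each difference against the spread between arrays within the groups of a fit. Alternatives were the replicate block, a trended and robust prior, a fit of only the groups compared, the brighter probe sets, 1 probe set per gene, quantile normalization and leaving out each array. With 4 arrays per group, their number limits the precision, and no detection calls were used.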

Additional observations from a re-analysis of the deposited data

Results flagged for a closer look

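Of 70 groups of 4 arrays (10 genes in 7 groups), 4 had 1 array far from the other 3, and chance gives about 1 in 20. Ddit4l read 5.52 on Nrf2-/- RA839 array 2 and 4.90 to 4.98 on the other 3. Fam13a read 6.72 on Nrf2-/- RA839 array 1 and 6.09 to 6.19 on the others. It read 9.15 on siKeap1-1 array 2, and the lowest of the other 3 read 8.98. Prkaa2 read 4.90 on siControl array 3 and 5.25 to 5.31 on the others. In the tested comparisons no call of these 3 genes changed when the array concerned was left out.

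For Ednrb and Comp, all 4 same-numbered RA839 minus DMSO differences were negative in Nrf2-/- cells and all 4 were positive in Nrf2+/+ cells. The genes were picked for rises in Nrf2+/+ cells, so the positive part is fixed by that choice. In Nrf2-/- cells the RA839 minus DMSO difference of Ednrb averaged -0.50 and was -0.86 to -0.0004 by replicate number. For Comp the Nrf2-/- difference averaged -0.27 and was -0.72 to -0.01. Neither passed in Nrf2-/- cells, and the difference between genotypes was not tested, since it contains the contrast that chose the genes. Slc6a9 was positive in 4 of 4 replicate numbers in Nrf2-/- cells (0.22, 0.03, 0.10 and 0.01). How often other probe sets had the same sign in all 4 was not counted.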

How the results depend on the processing

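Of 72 member results tested (RA839 in Nrf2-/- cells, genotype in DMSO and siKeap1-1 against siKeap1-2), 15 passed, and all 15 kept their sign and stayed past the threshold under every alternative run. Of the other 57, 4 passed under at least 1 alternative and 53 under none. With each array left out in turn, the member counts were 14 to 15 for genotype in DMSO, 1 to 2 between the siRNAs (2 without siKeap1-1 array 1, from Cdcp1 at 0.38), 0 for RA839 in Nrf2-/- cells and, for the siRNAs against siControl, which are no test of the members, 17 to 19 each. With the replicate number as a block, 2 member probe sets passed between the siRNAs in place of 1. The cause was not tested for any change below.

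Counts over all probe sets moved more. With the replicate block they were 6982 with siKeap1-1, 5674 with siKeap1-2, 3780 between the siRNAs, 579 with RA839 in Nrf2+/+ cells and 61 for its difference between genotypes, in place of 4301, 3053, 1804, 155 and 17. Across genotypes, where the numbers did not pair the arrays, the block gave 10079 in DMSO in place of 9592. With the brighter probe sets, of which fewer were tested, counts were 5753 and 7642 for genotype in DMSO and in RA839 (in place of 9592 and 11864) and 2808 between the siRNAs. With 1 probe set per gene they were 4561, 5538 and, for siKeap1-1, 2741. With only the groups compared they were 1043 between the siRNAs and 76 with RA839 in Nrf2+/+ cells. Leaving out 1 array gave 7227 to 12176 for genotype in DMSO, 9473 to 12030 in RA839, 3047 to 4081 with siKeap1-1, 1956 to 3700 with siKeap1-2, 1094 to 1761 between the siRNAs, 86 to 200 with RA839 in Nrf2+/+ cells, 3 to 40 for its difference between genotypes and 0 for RA839 in Nrf2-/- cells. The arrays whose absence moved a count by over 1.5 times were siControl 2 (2034) and siKeap1-2 2 (1956) for siKeap1-2, siKeap1-2 2 (1094) and 3 (1153) between the siRNAs, and Nrf2+/+ DMSO 1 (95), 2 (103) and 3 (101) and RA839 4 (86) for RA839 in Nrf2+/+ cells. For the RA839 difference between genotypes they were all but Nrf2+/+ DMSO 4 and Nrf2-/- DMSO 4, with 3 to 11, or 40 without Nrf2+/+ RA839 2. Low signal limits what can be read in Nrf2-/- cells for Trim9, Ednrb, Rasd2, Vegfd and Cdcp1, whose group means there were 2.66 to 4.24. For Prkaa2, Comp and Ddit4l these means were 4.80 to 5.18, and Prkaa2 averaged 5.15 in Nrf2+/+ DMSO. Without detection calls, whether such values lie above background was not tested.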
